A study of Mus musculus with 9 samples.

Results

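The stromal factors that set how many osteoclasts form in bone were examined as 4 genes, Tnfsf11, Tnfrsf11b, Csf1 and Il34, in RNA sequencing of mouse marrow mesenchymal stromal cells. They were taken by gene symbol, with no measured value used, as 4 of the 30579 genes in the deposited table. All 4 had at least 1 FPKM in every one of the 9 libraries, and all 4 were among the 11988 genes tested. FPKM counts fragments per kilobase of transcript, scaled to each library's total, so levels of different genes can be set side by side per length.

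Osteoclasts, the cells that resorb bone, arise from precursors of the monocyte lineage when stromal cells and osteoblasts supply them with signals. Tnfsf11 encodes RANKL, the ligand that binds RANK on the precursors and drives them to become osteoclasts, and Tnfrsf11b encodes osteoprotegerin (OPG), a secreted decoy receptor that binds RANKL and keeps it from RANK. Csf1 encodes macrophage colony-stimulating factor (M-CSF) and Il34 encodes interleukin-34, which are the ligands of the same receptor, CSF1R, that the precursors need to survive and divide. In marrow, stromal cells of the Lepr- and Cxcl12-rich type are a known source of RANKL and of M-CSF.

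The stromal cells were sorted by flow cytometry from long bones, from mice given an anti-VE-cadherin antibody, which labels endothelium, by retro-orbital injection shortly before death. Libraries were made with the SMART-Seq v4 kit, for small amounts of total RNA, in 3 groups of 3. The first group was labelled as knockout for Thbs1, the gene of the matrix glycoprotein thrombospondin-1, at 18 months of age, and the others were aged controls of 18 months and young controls of 3 months. The sources used here do not give the knockout allele, the strain or the sort gates, nor say that libraries of 1 group are from different mice. All p-values therefore gauge the spread among libraries, which may be technical. Aged against young controls is called the comparison with age.

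Thbs1 RNA checks the genotype label. It stood at 24.3, 44.6 and 37.1 FPKM in the libraries labelled knockout, at 35.6, 41.9 and 36.9 FPKM in aged controls, and at 75.0, 73.1 and 58.0 FPKM in young controls. Labelled-knockout and aged-control libraries overlapped, with a log2 fold change of -0.15 (SE 0.26; limma, adjusted p = 0.801). The data do not show loss of Thbs1 RNA, the place of the deletion is not given, and these libraries are therefore called labelled-knockout libraries throughout. As to the cell type label, 0 of 12 stromal defining markers were at 0 in any whole group, and their summed level was 8155 to 9770 FPKM in labelled-knockout libraries, 4343 to 6300 FPKM in aged controls and 9670 to 9858 FPKM in young controls.

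The steps between low FPKM values put the depth of a library at 17.6 to 27.4 M reads (M, mega), and 13503 to 18382 genes were above 0. Replicate 2 of the labelled-knockout libraries stood apart: it had the fewest genes above 0, and its correlation with the other libraries was 0.738 to 0.811 across genes, against 0.773 to 0.987 among all other pairs. Values of the 4 factors and counts over gene lists are therefore also given without it. The share of reads from immunoglobulin genes was 0.171%, 20.0% and 2.49% in the labelled-knockout libraries, 22.3%, 4.45% and 33% in aged controls, and 0.00404%, 0.0109% and 0.181% in young controls. Summed pan-leukocyte markers ran from 7.15 to 617 FPKM in labelled-knockout libraries, from 579 to 1206 FPKM in aged controls and from 7.94 to 18.3 FPKM in young controls. Of the 617 FPKM, in labelled-knockout replicate 2, Cd52 alone made up 545 FPKM. A library with much RNA of another kind lowers the FPKM of every stromal gene, and in bulk RNA fewer cells of a type and less RNA per cell cannot be told apart.

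Promoter sequence matched for only 2 of the 4 genes, Tnfsf11 and Csf1, and is shown for these. They were not picked by their fold changes. Each run is RefSeq sequence of GRCm38.p6, 250 bases before to 50 bases after the start site, read 5′ to 3′ on the minus strand, on which both genes lie. The Tnfsf11 window is chr14:78307994-78308293 and the Csf1 window is chr3:107760420-107760719. Capitals mark the matched core promoter and NF-kB motifs.
Tnfsf11: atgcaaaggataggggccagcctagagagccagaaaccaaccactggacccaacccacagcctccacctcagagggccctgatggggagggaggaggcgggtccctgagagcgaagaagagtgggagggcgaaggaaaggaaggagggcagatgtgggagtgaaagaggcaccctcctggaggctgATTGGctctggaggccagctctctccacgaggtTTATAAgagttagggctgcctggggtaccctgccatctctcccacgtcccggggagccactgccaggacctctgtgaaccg
Csf1: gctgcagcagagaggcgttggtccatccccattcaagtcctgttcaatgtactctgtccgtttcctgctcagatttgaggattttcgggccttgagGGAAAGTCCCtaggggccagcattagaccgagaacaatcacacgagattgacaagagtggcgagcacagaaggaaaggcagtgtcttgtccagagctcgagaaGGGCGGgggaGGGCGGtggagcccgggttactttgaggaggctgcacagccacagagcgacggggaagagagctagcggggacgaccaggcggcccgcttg

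The Tnfsf11 window held a TATA box (TATAA) that began at -30 from the start site, with an overlapping match on the other strand at -31, and a CCAAT box on the other strand at -64. The Csf1 window held GC boxes (GGGCGG) at -51 and -41 and an NF-kB motif (GGG, any 2 bases, then TTTCC) on the other strand at -154, and neither window held the motifs found in the other. Over 32544 promoters of the same length, searched on both strands, TATAA was in 24.8%, CCAAT in 37.4%, GGGCGG in 35.9% and the NF-kB motif in 1.61%. The letters searched for RUNX (TGTGGT), AP-1 (TGANTCA), cyclic AMP response (TGACG), C/EBP (TTNNGNAA) and vitamin D receptor (AGGTCA, any 3 bases, then AGGTCA) motifs were in neither window, against 16.7%, 7.79%, 20.9%, 40.7% and 0.00615% of all promoters. A match is a description of these letters and not a site of binding.

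In level per length, Csf1 was the highest and Tnfrsf11b the lowest of the 4 genes in 9 of 9 libraries. Averaged over all libraries, Csf1 reached 226 FPKM and ranked 179th of the genes tested, within the top 1.49%. Tnfsf11 and Il34 were close neighbours, at 85.3 and 85.2 FPKM and within the top 4.73% and 4.75%, and their order changed between libraries: Tnfsf11 was above Il34 in 3 of 3 labelled-knockout libraries, 1 of 3 aged controls and 1 of 3 young controls. Tnfrsf11b averaged 10.5 FPKM, within the top 34.8%. An estimated 332 reads lay behind the thinnest value, Tnfrsf11b in young control replicate 1, and 52985 behind the largest, Csf1 in aged control replicate 2.

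**Figure D1:**
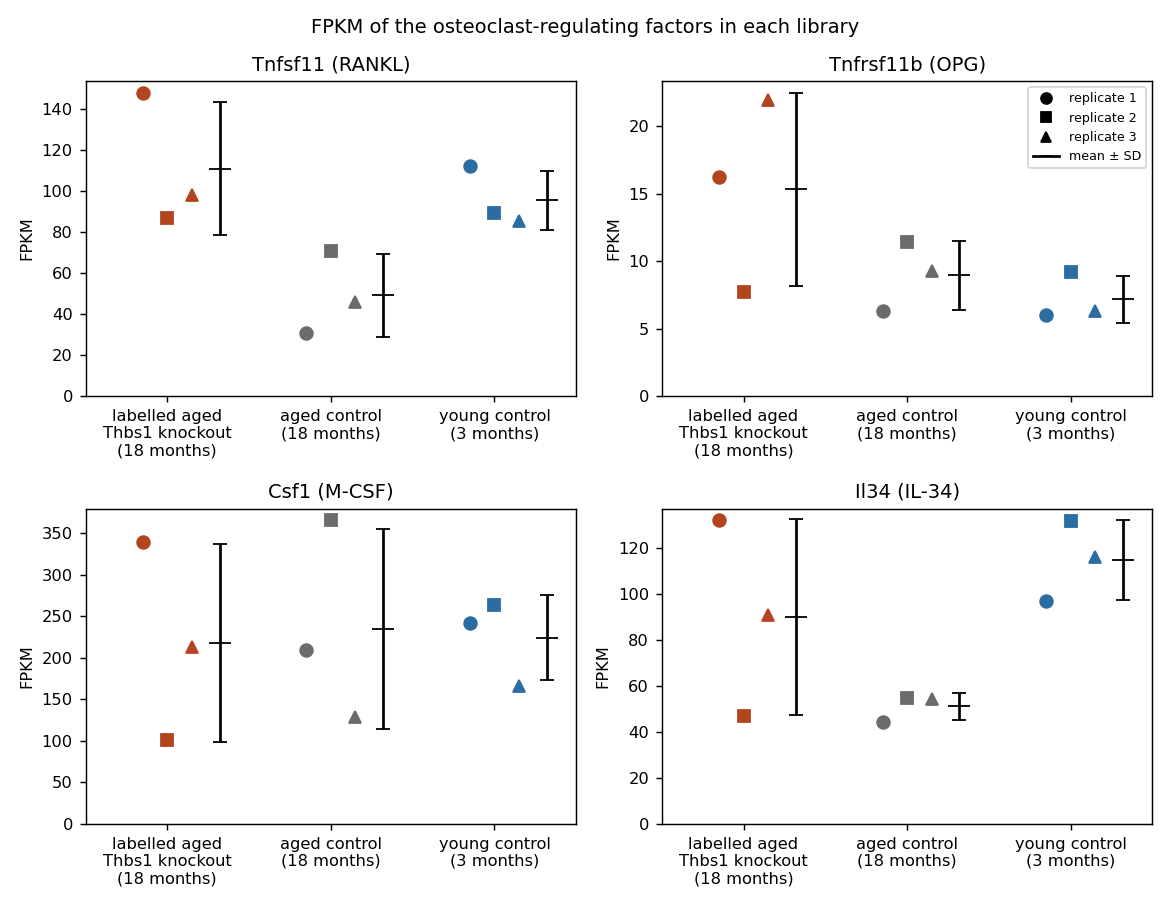
FPKM of each gene (vertical axes, each from 0) in the 3 libraries of each group, with symbols for replicate number and bars for the group mean ± SD (n = 3). Tnfsf11 in aged controls lies below both other groups, Il34 in aged controls lies below young controls, and Csf1 and Tnfrsf11b overlap between all groups.

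Tnfsf11 (ENSMUSG00000022015.8, chr14:78277445-78308043, GRCm38, minus strand) was high in both the labelled-knockout and the young libraries and low in aged controls. Its level was 148, 86.9 and 98.5 FPKM in the labelled-knockout libraries, 30.7, 71.1 and 45.9 FPKM in aged controls, and 112, 89.2 and 85.5 FPKM in young controls. Every aged control lay below every library of the other groups, while labelled-knockout and young libraries overlapped. The mean was 111 ± 32.4 FPKM in labelled-knockout libraries, 49.2 ± 20.4 FPKM in aged controls and 95.7 ± 14.5 FPKM in young controls (SD, n = 3 each).

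For Tnfsf11, aged controls against young controls gave a log2 fold change of -1.01 (SE 0.33, 95% interval -1.77 to -0.26), which did not pass (limma, adjusted p = 0.123). Labelled-knockout libraries against aged controls gave 1.20 (SE 0.33, 0.45 to 1.95; adjusted p = 0.0905), and against young controls 0.19 (SE 0.33, -0.56 to 0.94; adjusted p = 0.853). The first pair of comparisons shares the aged controls, so their opposite signs are not independent.

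Tnfrsf11b (ENSMUSG00000063727.3, chr15:54250619-54278484, minus strand), the decoy for RANKL, was the least abundant of the 4. Its level was 16.3, 7.74 and 22.0 FPKM in the labelled-knockout libraries, 6.30, 11.4 and 9.25 FPKM in aged controls, and 6.05, 9.21 and 6.33 FPKM in young controls. The 2 highest values belonged to labelled-knockout replicates 1 and 3, but replicate 2 lay inside the range of both control groups. The log2 fold changes were 0.63 (SE 0.37, 95% interval -0.20 to 1.47; limma, adjusted p = 0.380) for labelled-knockout libraries against aged controls and 0.91 (SE 0.37, 0.07 to 1.74; adjusted p = 0.554) against young controls. Aged against young controls gave 0.27 (SE 0.37, -0.57 to 1.11; adjusted p = 0.707).

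The ratio of Tnfsf11 to Tnfrsf11b within a library does not depend on how that library was scaled. It was 9.08, 11.2 and 4.48 in the labelled-knockout libraries, 4.87, 6.24 and 4.96 in aged controls, and 18.6, 9.69 and 13.5 in young controls. Every aged control was below every young control, and the labelled-knockout libraries overlapped both. The aged-control ratio was 0.398 times the young one (log2 difference -1.33, SE 0.29; exact two-sided permutation p = 0.1, the smallest that 3 against 3 allows, 0.3 after adjustment over the 6 ratio tests). Labelled-knockout libraries differed by 0.54 on the log2 scale from aged controls (SE 0.42; exact permutation p = 0.4, adjusted p = 0.4) and by -0.79 from young controls (SE 0.48; exact permutation p = 0.2, adjusted p = 0.3).

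**Figure D2:**
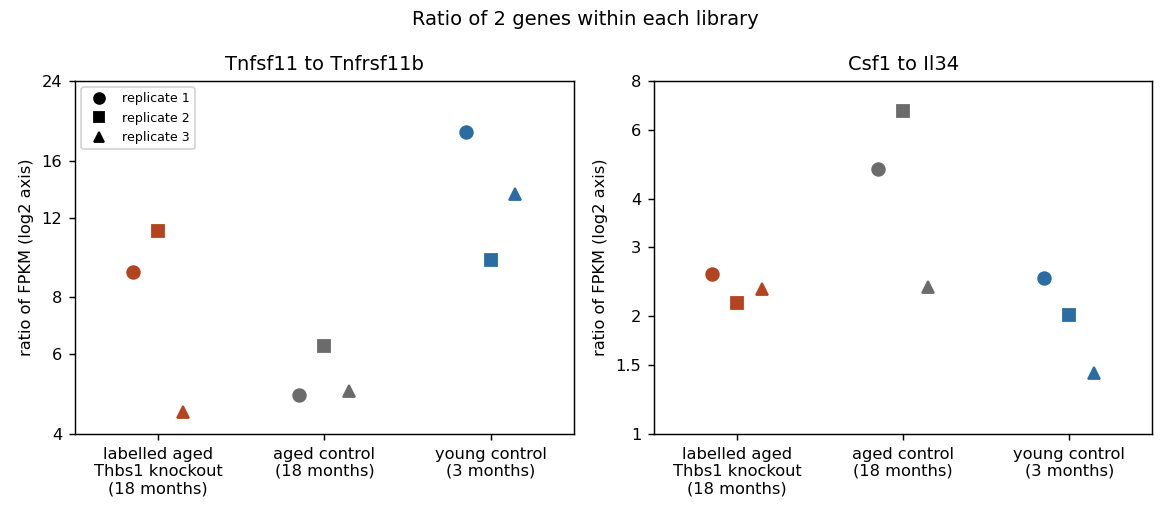
Ratio of the FPKM of 2 genes within each library (log2 axes), by group, with symbols for replicate number. For Tnfsf11 to Tnfrsf11b the aged controls lie between 4.87 and 6.24 and the young controls between 9.69 and 18.6, and for Csf1 to Il34 the groups overlap.

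Csf1 (ENSMUSG00000014599.10, chr3:107741048-107760469, minus strand) varied more within groups than between them. Its level was 339, 101 and 213 FPKM in the labelled-knockout libraries, 210.1, 366 and 129 FPKM in aged controls, and 243, 264 and 167 FPKM in young controls, so that every group overlapped every other. The log2 fold change was -0.15 for labelled-knockout libraries against aged controls (SE 0.49, 95% interval -1.26 to 0.97; limma, adjusted p = 0.903) and -0.18 against young controls (SE 0.49, -1.29 to 0.93; adjusted p = 0.907). Aged against young controls gave -0.03 (SE 0.49, -1.15 to 1.08; adjusted p = 0.978). Each of these signs turned with the scaling or with single libraries.

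Il34 (ENSMUSG00000031750.15, chr8:110741829-110805924, minus strand) was low in all aged controls. Its level was 132, 47.0 and 90.6 FPKM in the labelled-knockout libraries, 44.2, 54.5 and 54.5 FPKM in aged controls, and 96.8, 131 and 116 FPKM in young controls. Aged controls lay below every young control, while the labelled-knockout libraries spread over both ranges, with replicate 2 at the aged level. Aged against young controls gave a log2 fold change of -1.15 (SE 0.35, 95% interval -1.94 to -0.36), which did not pass (limma, adjusted p = 0.104). Labelled-knockout libraries gave 0.69 against aged controls (SE 0.35, -0.10 to 1.48; adjusted p = 0.309) and -0.46 against young controls (SE 0.35, -1.25 to 0.33; adjusted p = 0.674). Exons of Il34 overlap the antisense genes Gm15894 and Gm15895 in GENCODE M21, and since strand-aware counting is not stated, reads of these genes cannot be told apart.

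The balance of the CSF1R ligands was taken as the ratio of Csf1 to Il34 within a library. It was 2.57, 2.16 and 2.35 in the labelled-knockout libraries, 4.76, 6.72 and 2.37 in aged controls, and 2.51, 2.01 and 1.44 in young controls. Aged replicates 1 and 2 were the highest of the 9, and replicate 3 lay with the other groups. The log2 difference was -0.85 for labelled-knockout libraries against aged controls (SE 0.45) and 1.13 for aged against young controls (SE 0.50), each with an exact permutation p of 0.2 (adjusted p = 0.3). Labelled-knockout against young libraries gave 0.28 (SE 0.24; exact permutation p = 0.3, adjusted p = 0.36).

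Of the 4 genes, 0 passed the adjusted threshold in aged against young controls, where 4.04% of all tested genes did (484, of which 308 or 2.57% were higher and 176 or 1.47% lower). Likewise 0 passed in labelled-knockout libraries against aged controls, where 3.48% did (417, of which 182 or 1.52% were higher and 235 or 1.96% lower), and 0 against young controls, where 0.0250% did. At an unadjusted limma p under 0.05 the counts were 2 of 4 against 21.7% of all genes, 1 of 4 against 19.8%, and 1 of 4 against 8.63%. Groups did not overlap, with the aged controls lower, for 2 of 4 genes against 37.4% of all genes, and with the labelled-knockout libraries higher than aged controls for 1 of 4 against 16.6%. In FPKM as deposited, labelled-knockout and young libraries overlapped for all 4, where 17.5% of all genes did not. The split of calls moved with the scaling: under median-ratio rescaling it was 359 higher and 68 lower with age, and 178 higher and 352 lower in labelled-knockout libraries against aged controls.

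**Figure D3:**
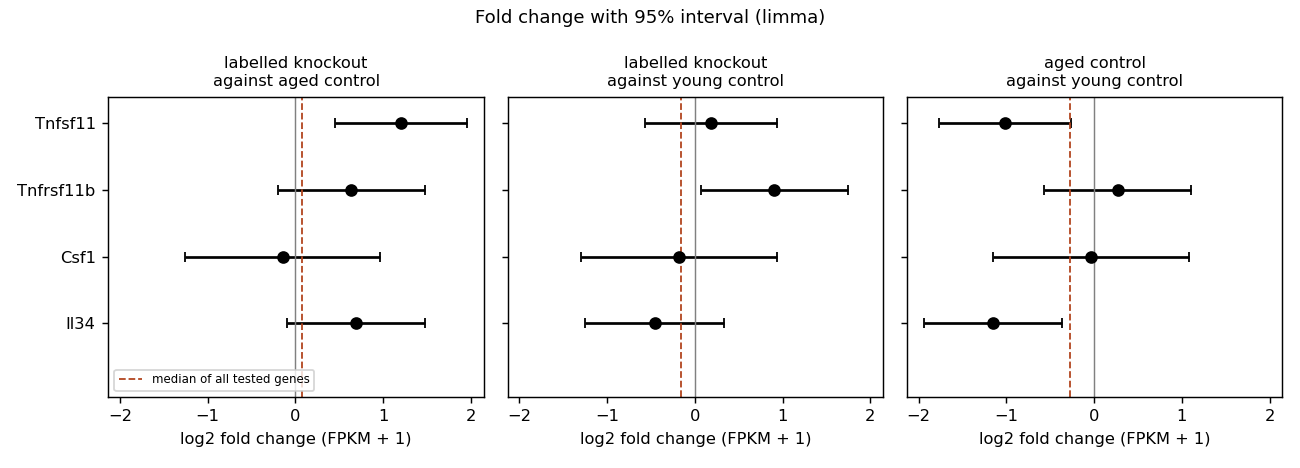
log2 fold change on the log2(FPKM + 1) scale (horizontal axes) of each gene in the 3 comparisons, with 95% intervals from limma. Dashed lines mark the median of all tested genes, at 0.07, -0.16 and -0.28. The Tnfsf11 interval excludes 0 in the comparisons with aged controls, the Il34 interval in aged against young controls, and the Tnfrsf11b interval in labelled-knockout libraries against young controls.

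Leaving out labelled-knockout replicate 2, the library that stood apart, brought several of these differences past the threshold. Tnfsf11 then was lower in aged than in young controls at -1.01 (adjusted p = 0.0423; 8.50e-05 to 0.445 over the limma alternatives), and so was Il34 at -1.15 (adjusted p = 0.00923; 3.63e-05 to 0.390). The library left out belongs to neither of these groups, so their values and fold changes stayed the same. Only the spread shared over all libraries and the set of genes tested changed. In the 2 remaining labelled-knockout libraries Tnfsf11 was higher than in aged controls by 1.36 (adjusted p = 0.0309; 1.90e-04 to 0.377), Il34 by 1.09 (adjusted p = 0.0191; 5.63e-04 to 0.637) and Tnfrsf11b by 1.03 (adjusted p = 0.0363; 2.31e-04 to 0.750), on the log2 scale. Against young controls 0 of 4 passed, Tnfrsf11b coming nearest at 1.30 (adjusted p = 0.107). The background was larger as well: without that library 23.1% of all tested genes passed with age (5.17% higher, 17.9% lower), 16.0% against aged controls (11.5% higher, 4.48% lower) and 0.313% against young controls.

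The size of the differences also depended on the scale. The median log2 fold change of all tested genes was -0.28 with age, and for labelled-knockout libraries it was 0.07 against aged controls and -0.16 against young ones. With median-ratio rescaling, which sets those medians near 0, Tnfsf11 differed by -0.68 and Il34 by -0.81 with age, and with immunoglobulin genes left out by -0.70 and -0.84. Under median-ratio rescaling Tnfrsf11b no longer overlapped between labelled-knockout libraries, at 9.82 to 19.95 FPKM, and young controls, at 5.36 to 8.01 FPKM. It did not pass there (log2 fold change 1.09; limma, adjusted p = 0.378). The share of all genes that do not overlap under that rescaling was not worked out. Set against Cxcl12, the chemokine that marks these stromal cells, Tnfsf11 was 17.4 to 24.5 FPKM per 1000 FPKM of Cxcl12 in labelled-knockout libraries, 10.7 to 17.2 in aged controls and 15.3 to 21.6 in young controls. On that scale aged and young controls overlapped for Tnfsf11, but not for Il34, at 13.2 to 15.4 in aged and 18.7 to 23.2 in young controls. Tnfrsf11b was higher in every aged than in every young control on it, at 2.19 to 2.76 against 1.14 to 1.62. As deposited, Tnfrsf11b overlapped between aged and young controls. Cxcl12 itself stood at 4226 to 6044 FPKM in labelled-knockout libraries, 2873 to 4132 FPKM in aged controls and 5190 to 5674 FPKM in young controls. How many of all genes separate relative to Cxcl12 was not worked out. The part that leukocyte and plasma cell RNA has in the lower FPKM of aged controls was not tested beyond these rescalings.

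Receptors and binding partners of the 4 factors were low apart from Sdc1. Tnfrsf11a, which encodes RANK, was listed at 0 in every labelled-knockout and young library and reached 0.05 FPKM in 1 aged control. Csf1r stood at 1.51 to 3.53 FPKM in labelled-knockout libraries, 0.66 to 1.49 FPKM in aged controls and 1.33 to 1.64 FPKM in young controls. Lgr4, a further receptor for RANKL, stood at 2.75 to 6.95 FPKM in labelled-knockout libraries, 3.99 to 5.91 FPKM in aged controls and 7.66 to 9.08 FPKM in young controls. Ptprz1, a further receptor for interleukin-34, reached 0.89 FPKM at most. Sdc1, encoding syndecan-1, which binds interleukin-34 and also marks plasma cells, stood at 69.6 to 158 FPKM in labelled-knockout libraries, 73.8 to 158 FPKM in aged controls and 85.7 to 126 FPKM in young controls. Of 3 list members tested, 0 passed in any comparison (limma). At an unadjusted limma p under 0.05 the counts were 1, 1 and 0 with age, against aged controls and against young controls. Of all genes 21.7%, 19.8% and 8.63% were under it. Without labelled-knockout replicate 2, 1 of the 3 was lower with age, where 17.9% of all genes were, and 0 passed in the other comparisons.

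Genes by which stromal cells are known to control Tnfsf11 included receptors for parathyroid hormone, vitamin D, interleukin-6 family cytokines, interleukin-1, prostaglandin E2 and TNF, and transcription factors. Of 20, 19 were tested. With age 0 passed (limma; 9 at an unadjusted p under 0.05, as for 21.7% of all genes), all 19 had a negative fold change, and the median was -0.64 against -0.28 over all genes. In labelled-knockout libraries against aged controls 1 was higher and 0 lower, where 1.52% and 1.96% of all genes were, 16 were positive, and the median was 0.54 against 0.07. Against young controls 0 passed (3 at an unadjusted p under 0.05, where 8.63% of all genes were), with a median of -0.07 against -0.16. At a minimum of 5 FPKM the median of all genes was -0.36 with age, 0.15 against aged controls and -0.17 against young controls. The share of all genes with each sign was not worked out.

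Vdr, the vitamin D receptor, through which the hormone induces Tnfsf11, was the regulator that passed. It stood at 74.2, 20.9 and 40.5 FPKM in the labelled-knockout libraries, 6.33, 12.1 and 7.27 FPKM in aged controls, and 36.0, 31.3 and 19.1 FPKM in young controls, with aged controls below every other library. Labelled-knockout libraries were higher than aged controls by 2.14 on the log2 scale (SE 0.45, limma, adjusted p = 0.0369), in 3 of 3 libraries, and aged controls differed from young ones by -1.64 (SE 0.45; adjusted p = 0.0791). The call was lost when any one library other than labelled-knockout replicate 2 was left out.

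The next regulator by p against aged controls was Cebpd, a C/EBP transcription factor, at 235, 368 and 213 FPKM in labelled-knockout libraries, 91.8, 178 and 115 FPKM in aged controls and 266, 232 and 270.4 FPKM in young controls (against aged controls 1.09, SE 0.31; limma, adjusted p = 0.0959). It was followed by Tnfrsf1a, a TNF receptor, at 0.81 (SE 0.27; adjusted p = 0.137). With age the smallest p-values belonged to Pparg, the adipogenic receptor, at -1.52 (SE 0.37; adjusted p = 0.0534), Ebf1, a factor of marrow stromal identity, at -1.16 (SE 0.30; adjusted p = 0.0669), and Vdr. Against young controls they were Nr3c1, the glucocorticoid receptor, at -0.54, Lifr, a gp130-partner receptor, at -0.81, and Ebf1 at -0.72, with adjusted p of 0.519, 0.531 and 0.555. Pth1r, the parathyroid hormone receptor, stood at 150, 31.7 and 194 FPKM in labelled-knockout libraries, 30.6, 40.7 and 35.4 FPKM in aged controls and 92.1, 108 and 69.6 FPKM in young controls. In it, as in Il34, labelled-knockout replicate 2 lay at the aged level and the other labelled-knockout libraries above it. Without that replicate, 10 of the 19 were lower with age, where 17.9% of all genes were, 6 were higher in labelled-knockout libraries than in aged controls, where 11.5% were, and 0 passed against young controls.

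Other genes of signals that act on osteoclasts or their precursors, not all with secreted products, were followed in a list of 48 genes, of which 36 were tested. With age 2 were higher and 8 lower, where 2.57% and 1.47% of all genes were, with a median of -0.65 against -0.28 over all genes. In labelled-knockout libraries against aged controls 3 were higher and 2 lower, where 1.52% and 1.96% of all genes were, with a median of 0.44 against 0.07. Against young controls 0 passed (limma), and 6 were at an unadjusted p under 0.05, where 8.63% of all genes were. Sost, a Wnt inhibitor of osteocytes, was listed at 0 in every library. Without labelled-knockout replicate 2 the counts were 6 higher and 16 lower with age, where 5.17% and 17.9% of all genes were, 11 higher and 3 lower against aged controls, where 11.5% and 4.48% were, and 0 against young controls.

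The genes of this list called higher with age were Osm and Ptgs2. Osm encodes oncostatin M, a gp130 cytokine that induces Tnfsf11 in stromal cells, and stood at 1.40, 18.2 and 10.3 FPKM in the labelled-knockout libraries, 900.5, 1496 and 79.7 FPKM in aged controls, and 2.74, 3.64 and 4.72 FPKM in young controls. It rose with age by 6.69 on the log2 scale (SE 1.06; limma, adjusted p = 0.0154) and was lower in labelled-knockout libraries than in aged controls (log2 fold change -5.90, SE 1.06; adjusted p = 0.0262). Ptgs2, the prostaglandin synthase COX-2, stood at 0.58, 1.18 and 4.58 FPKM in labelled-knockout libraries, 45.3, 114 and 7.01 FPKM in aged controls, and 1.72, 0.96 and 1.36 FPKM in young controls. Its log2 fold changes were 3.91 with age (adjusted p = 0.0397) and -3.71 against aged controls (adjusted p = 0.0491). Il6, a related cytokine, stood at 34.6, 30.0 and 46.1 FPKM in labelled-knockout libraries, 290.4, 534 and 38.2 FPKM in aged controls, and 23.5, 11.3 and 24.5 FPKM in young controls, and did not pass with age (3.21, SE 0.81; adjusted p = 0.0602). In all 3 genes aged replicate 3 was the lowest aged library by a wide margin. Summed pan-leukocyte markers were 7.15, 617 and 101 FPKM in labelled-knockout libraries and 579 to 1206 FPKM in aged controls. Cd52 alone was 545 FPKM in labelled-knockout replicate 2 and 417 FPKM in aged replicate 3. Every other marker of that list was lower in labelled-knockout replicate 2 than in aged replicate 3. The part of leukocyte RNA in the values of Osm, Ptgs2 and Il6 was not tested.

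The calls of Osm and Ptgs2 with age were lost when any single young control or aged replicate 1 was left out, and for Ptgs2 also without aged replicate 2. Their calls against aged controls were lost without any single young control, aged replicate 1 or 2, or labelled-knockout replicate 1 or 3.

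**Figure D4:**
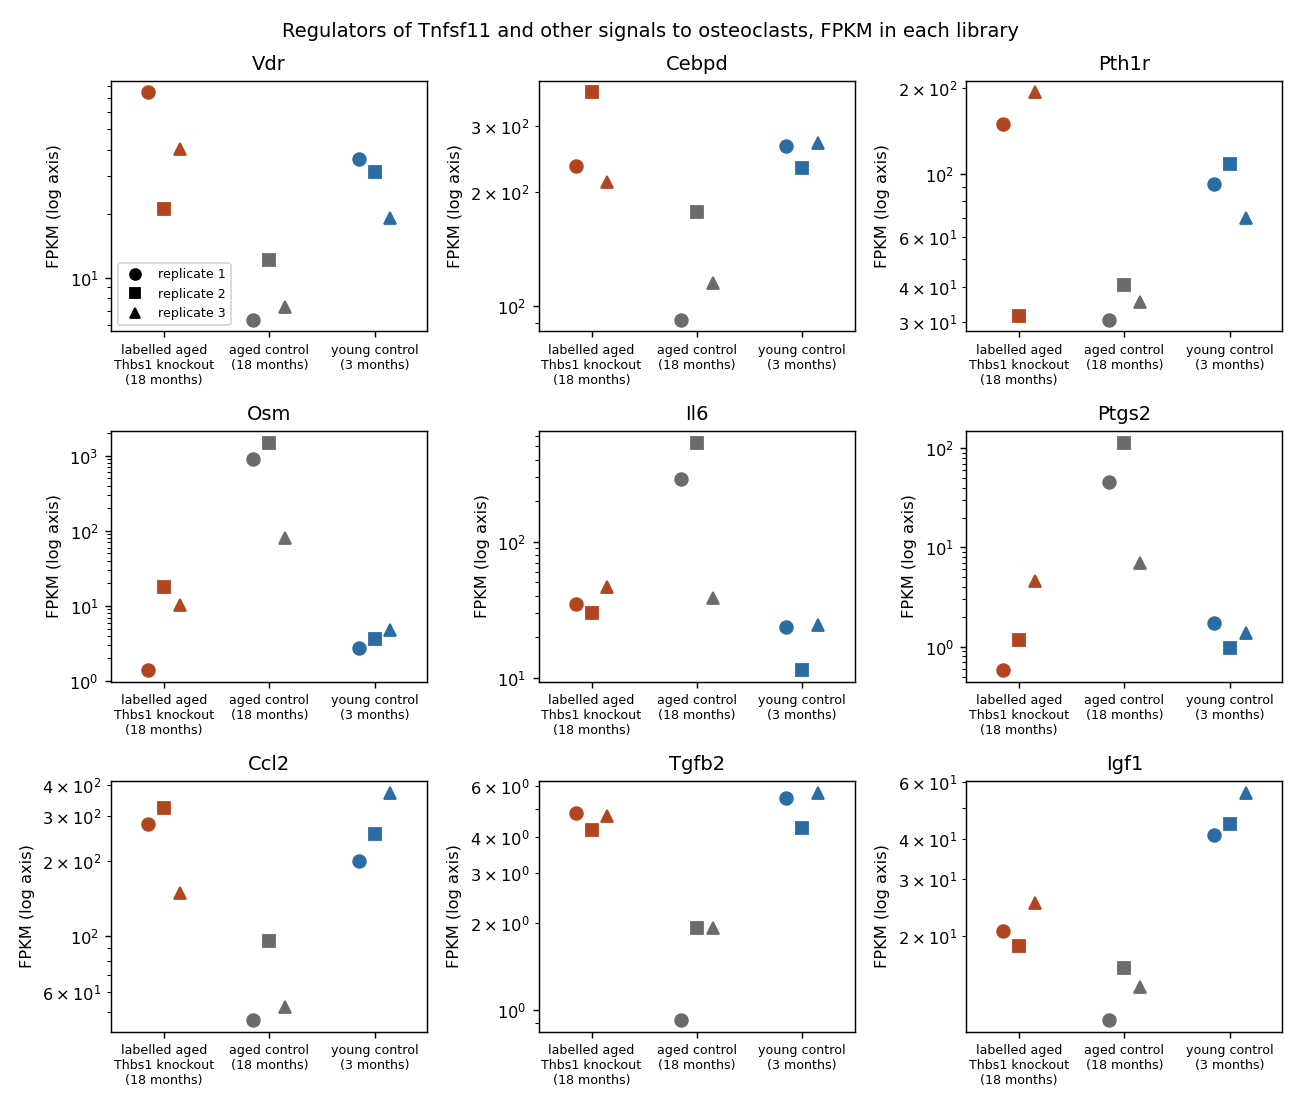
FPKM (log axes) in each library of 3 regulators of Tnfsf11 (Vdr, Cebpd, Pth1r) and 6 other genes of signals (Osm, Il6, Ptgs2, Ccl2, Tgfb2, Igf1), by group, with symbols for replicate number. Osm, Il6 and Ptgs2 are highest in aged controls 1 and 2, while Vdr, Ccl2 and Tgfb2 are lower in every aged control than in every other library.

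The signals lower with age were Ccl2, Sfrp4, Tgfb2, Bmp4, Igf1, Spp1, Cthrc1 and Angptl4. Igf1, the growth factor, had the smallest p of the list, at 20.8, 18.7 and 25.3 FPKM in labelled-knockout libraries, 11.0, 15.9 and 13.9 FPKM in aged controls and 41.1, 44.6 and 55.6 FPKM in young controls, and fell by 1.72 on the log2 scale with age (SE 0.23; limma, adjusted p = 0.00837). Sfrp4, a secreted Wnt antagonist, fell by 1.85, Spp1, osteopontin, by 2.02, Bmp4 by 1.74 and Angptl4, an inhibitor of lipoprotein lipase, by 2.07. Each of these 8 calls was lost without any single young control or without aged replicate 1, those of Sfrp4, Spp1, Cthrc1 and Angptl4 also without aged replicate 2 or 3, and that of Ccl2 also without aged replicate 3. Ccl2, Tgfb2 and Bmp4 also missed the threshold under median-ratio rescaling (adjusted p = 0.0623, 0.0541 and 0.0845; log2 -1.75, -1.02 and -1.41).

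Ccl2, Tgfb2 and Cthrc1 were the signals that were lower with age and higher in labelled-knockout libraries than in aged controls, comparisons that share the aged libraries. Ccl2, the chemokine that draws monocytes, stood at 279, 322 and 149 FPKM in labelled-knockout libraries, 46.5, 96.2 and 52.6 FPKM in aged controls, and 199, 255 and 372 FPKM in young controls. It was higher by 1.92 against aged controls (SE 0.40; limma, adjusted p = 0.0352) and differed by -2.09 with age (SE 0.40; adjusted p = 0.0265). Tgfb2, a transforming growth factor, was at 4.86, 4.21 and 4.71 FPKM in labelled-knockout libraries, against 0.92, 1.92 and 1.92 FPKM in aged controls, higher by 1.14 (SE 0.24; adjusted p = 0.0355). Cthrc1, a secreted glycoprotein, was at 15.9, 6.53 and 61.8 FPKM in labelled-knockout libraries, against 1.54, 1.66 and 0.45 FPKM in aged controls, higher by 3.22 (SE 0.67; adjusted p = 0.0355). These 3 calls were lost when any one library other than labelled-knockout replicate 2 was left out, except that Tgfb2 kept its call without aged replicate 3, and that of Ccl2 also under median-ratio rescaling (adjusted p = 0.0509). Against young controls the smallest p-values of the list were those of Igf1 at -1.09, Spp1 at -1.60 and Sfrp4 at -1.27, with adjusted p of 0.278, 0.381 and 0.444.

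Genes of osteoclasts, the cells on which these factors act, were measured in the same libraries. Of 20 osteoclast genes 12 were tested and 0 passed in any comparison (limma). At an unadjusted limma p under 0.05 the counts were 4, 2 and 0 with age, against aged controls and against young controls. Of all genes 21.7%, 19.8% and 8.63% were under it. The fusion genes Ocstamp and Dcstamp reached at most 0.26 FPKM, Siglec15 was listed at 0 throughout, and Calcr, the calcitonin receptor, reached 0.09 FPKM in 1 library. Ctsk, cathepsin K, which stromal cells also express, stood at 119 to 161 FPKM in labelled-knockout libraries, 54.6 to 82.5 FPKM in aged controls and 119 to 143 FPKM in young controls. Mmp9, a matrix metalloproteinase, was at 46.3, 5.01 and 231 FPKM in labelled-knockout libraries, 4.29, 4.67 and 2.60 FPKM in aged controls and 17.0, 19.9 and 11.2 FPKM in young controls. Car2, carbonic anhydrase 2, reached 84.9 FPKM in 1 aged control. Without labelled-knockout replicate 2, 1 of the 12 was higher and 3 were lower with age, where 5.17% and 17.9% of all genes were. Then 2 were higher against aged controls, where 11.5% were, and 0 passed against young controls. Summed osteoclast genes ran from 177 to 481 FPKM in labelled-knockout libraries, from 148 to 208 FPKM in aged controls and from 205 to 213 FPKM in young controls.

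Summed monocyte and macrophage markers, 18 genes, ran from 481 to 995 FPKM in labelled-knockout libraries, from 352 to 1159 FPKM in aged controls and from 500.03 to 535 FPKM in young controls. Of the defining markers, Adgre1, C1qa, Fcgr1 and Marco reached 2.46, 0.40, 0.04 and 0.08 FPKM at most, while Lyz2, Cd14, Cd68 and Ccr2 reached 18.7, 18.6, 18.8 and 10.04 FPKM. Vcam1, which stromal cells also express, stood at 415, 128 and 321 FPKM in labelled-knockout libraries, 134, 172 and 160.0 FPKM in aged controls and 403, 412 and 377 FPKM in young controls. Ly6c2, which plasma cells also express, stood at 3.55, 788 and 89.3 FPKM in labelled-knockout libraries, 578, 99.1 and 941 FPKM in aged controls and 0.11, 0.58 and 11.3 FPKM in young controls.

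Markers of other cells differed between the groups in both directions. Pan-leukocyte markers were higher with age for 9 of 10 tested, where 2.57% of all genes were. They were lower in labelled-knockout libraries than in aged controls for 7, where 1.96% were. Without labelled-knockout replicate 2 the counts were 10 and 9, where 5.17% and 4.48% of all genes were. Spi1 and Cd37 then reached 1 FPKM only in aged controls, so the filter fixed the direction of their calls. With all libraries, outside aged controls, Lcp1 reached 1 FPKM only in labelled-knockout replicate 3, and Spi1 and Cd37 only in replicate 2. Calls with age were lost in 0 (Fermt3) to 5 of 9 fits with 1 library left out, and those against aged controls in 0 to 7. B lineage and plasma cell markers were higher with age for 6 of 10 and lower against aged controls for 1. Without labelled-knockout replicate 2 the counts were 8 and 7, and both pairs stand beside the same shares. Ms4a1 then reached 1 FPKM only in aged controls, so the filter fixed the direction in which it could be called. With all libraries, outside aged controls, Ms4a1 reached 1 FPKM only in labelled-knockout replicate 2 and Mzb1 only in replicate 3. Calls with age were lost in 4 to 8 of 9 fits with 1 library left out. Ms4a1 and Derl3 also missed the threshold with age under median-ratio rescaling (limma, adjusted p = 0.0531 and 0.0571). Without labelled-knockout replicate 2, 1 was lower with age, where 17.9% of all genes were. This was Ebf1, which is also among the stromal defining markers. Nkg7, of cytotoxic lymphocytes, was the 1 tested of 12 T and NK cell markers, at 0, 0 and 0.10 FPKM in labelled-knockout libraries, 14.2, 25.2 and 4.31 FPKM in aged controls and listed at 0 in all young controls. Pecam1, of endothelium and also of leukocytes, was the 1 tested of 10 endothelial markers, at 0.02, 0.42 and 0.37 FPKM in labelled-knockout libraries, 9.34, 11.6 and 2.07 FPKM in aged controls and 0.05 to 0.09 FPKM in young controls. Both reached 1 FPKM only in aged controls, so they passed the filter through the group where they were high. The direction of their calls, higher with age and lower against aged controls, was thereby fixed, and no p-value is given. Without any single aged control neither gene was tested. Cd3e and Cdh5 reached 0.04 and 1.99 FPKM at most.

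Osteoblast markers were lower with age for 5 of 12, where 1.47% of all genes were, and higher against aged controls for 4, where 1.52% were. Without labelled-knockout replicate 2 the counts were 9 and 7, where 17.9% and 11.5% of all genes were. Osteoblast calls with age were lost in 3 to 7 of 9 fits with 1 library left out, and those against aged controls in 2 to 8. Chondrocyte markers were higher against aged controls for 7 of 12, where 1.52% of all genes were. The calls were lost in 2 (Sox9, Snorc) to 8 (Col2a1, Cnmd, Col9a1) of 9 fits with 1 library left out. The summed level of the 12 markers was 213 to 3625 FPKM in labelled-knockout libraries, 72.4 to 105 FPKM in aged controls and 219 to 476 FPKM in young controls. Without labelled-knockout replicate 2, 12 of these markers were higher against aged controls, 6 higher against young controls and 9 lower with age. Of all genes 11.5%, 0.313% (in either direction) and 17.9% were. Osteoblasts and hypertrophic chondrocytes are themselves known sources of RANKL. Of the stromal defining markers 2 of 12 (Adipoq, Col1a1) were lower with age and 2 (Col1a1, Col3a1) higher against aged controls, where 1.47% and 1.52% of all genes were. Col1a1 is also counted among the osteoblast markers. Adipoq missed the threshold under median-ratio rescaling (limma, adjusted p = 0.147). With 1 library left out, the calls of Adipoq and Col1a1 with age were lost in 8 and 6 of 9 fits. Those of Col1a1 and Col3a1 against aged controls were lost in 8 and 7. Without labelled-knockout replicate 2, 8 stromal defining markers were lower with age and 2 higher against aged controls, where 17.9% and 11.5% of all genes were. Immediate early genes, which can rise during sorting, were lower with age for 5 of 23, where 1.47% of all genes were. They were higher against aged controls for 6, where 1.52% were. Without labelled-knockout replicate 2 the counts were 8 and 9, where 17.9% and 11.5% of all genes were. Their calls with age were lost in 1 (Atf3) to 7 of 9 fits with 1 library left out, and those against aged controls in 0 (Atf3) to 8. Under median-ratio rescaling Socs3 and Myc missed the threshold with age (adjusted p = 0.0794 and 0.0507), and Klf2 and Klf4 against aged controls (adjusted p = 0.0762 and 0.0881). The part of these cells and of handling in the values of the 4 factors was not tested.

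The genes whose level over the 9 libraries followed each factor most closely were found by Pearson correlation of log2(FPKM + 1), as a description that carries the shared depth and scaling of the libraries. Tnfsf11 went most closely with 9530082P21Rik, P3h3, Kctd3, Bcl3 and Tnfrsf1a, at 0.97 to 0.98. Il34 went with Ephx2, Timp4, Rabl2, Vcam1 and Itm2a, at 0.98, and Csf1 with Tada3, Anxa6, Glipr2, Prkag1 and Esyt2, at 0.97 to 0.99. Tnfrsf11b went with Gfpt2, Meltf, Comp, Scd2 and Gm8894 at 0.90 to 0.94. Among the 4, Tnfsf11 and Il34 were closest at 0.74, and the other pairs lay between 0.26 and 0.43.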

How the data were processed

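RNA of sorted marrow stromal cells was sequenced in 9 libraries of 3 groups. The deposited values are FPKM per gene, as the authors gave them to 2 decimals per the file headers. FastQC 0.11.5, STAR, edgeR and GRCm38 (mm10) are listed, without roles, in the submitters' processing notes. The sources used here give no annotation, counter or strand setting. Columns were matched to samples by the library identifier in each sample's description, and groups were taken from titles.

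Depth came from the steps between low FPKM values times GENCODE M21 exon length (a model for 98.5% of genes): 99.7% to 100% of 100 to 418 low values per library were whole reads within 0.1. At an exon length of 2 kb the floor of 3 reads is 0.0548 to 0.0851 FPKM, counting error only. Estimated reads per gene are such products, not counts.

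limma 3.58.1 in R 4.3.3 was run on log2(FPKM + 1) with an intensity trend over the 11988 genes of at least 1 FPKM in at least 3 libraries, all 9 libraries in one fit, with Benjamini-Hochberg adjustment over all genes and a threshold of 0.05. Fold changes on that scale understate those of low genes. Ratios used a pseudocount of 0.1 and exact two-sided permutation tests. The procedure was tested on simulated data. Alternatives were another pseudocount, filters, rescalings, immunoglobulin genes left out, no trend, array weights, fewer libraries and a replicate block; levels relative to Cxcl12 and list counts without labelled-knockout replicate 2 were added after seeing the data. Named genes are the 4 factors, Thbs1, list members that passed, the 3 smallest p-values of the receptor, regulator and signal lists, and the 5 closest genes by correlation; others (Il6, Pth1r, Ctsk, Mmp9, Car2, Ly6c2, Vcam1, Lyz2, Cd14, Cd68, Ccr2, the defining markers and those at 0) were chosen after their values were seen. One marker gene is not reported here. The 4 factors and the lists were chosen with earlier results of these data known. Tables and figures used matplotlib 3.10.9, scipy 1.17.1, pandas 2.3.3 and numpy 2.4.6 under Python 3.11.15.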

Additional observations from a re-analysis of the deposited data

How the results depend on the processing

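Over 20 limma alternatives and the scale relative to Cxcl12, Tnfsf11 and Il34 kept their direction in the comparisons with aged controls. Array weights gave -1.51 and 1.64 for Tnfsf11 with age and against aged controls, -1.36 and 1.06 for Il34, and 1.50 and 1.30 for Tnfrsf11b against aged and young controls, all past the threshold, and turned Tnfrsf11b with age to -0.20 and Csf1 against aged controls to 0.11. Il34 with age passed in a fit of only the 6 libraries compared (-1.15) and without labelled-knockout replicate 2 under median-ratio rescaling (-0.81, adjusted p = 0.0478), where the other calls gained without that replicate missed the threshold (adjusted p = 0.170 for Tnfsf11 with age, and 0.0691, 0.0649 and 0.0911 for Tnfsf11, Il34 and Tnfrsf11b against aged controls). Csf1 with age turned to 0.31 under median-ratio rescaling, 0.31 with that replicate also left out, 0.12 under quantile normalization, 0.28 with immunoglobulin genes left out and 0.62 relative to Cxcl12. Against aged and young controls it turned to 0.034 and 0.34 with both changes, and to 0.032 against young controls under median-ratio rescaling. The cause was not tested. With each library left out in turn, the log2 ranges with age, against aged controls and against young controls were -1.32 to -0.72, 0.91 to 1.50 and -0.037 to 0.34 for Tnfsf11, 0.10 to 0.48, 0.33 to 1.03 and 0.60 to 1.30 for Tnfrsf11b, -0.42 to 0.33, -0.55 to 0.32 and -0.58 to 0.29 for Csf1, and -1.27 to -1.05, 0.36 to 1.09 and -0.79 to -0.06 for Il34; a call changed only without labelled-knockout replicate 2. Ratio differences kept their sign in 9 alternatives each. The counts of 484, 417 and 3 genes called ranged from 4 to 2729, 13 to 1895 and 2 to 37 with a library left out, the highest without labelled-knockout replicate 2 and the first 2 lowest without aged replicate 1. They were 7419, 6347 and 1414 with array weights, 138, 92 and 2 with no filter, 2155, 14 and 2 in fits of only the libraries compared, 199 against aged controls at a minimum of 5 FPKM, and 1268, 1354 and 49 without labelled-knockout replicate 2 under median-ratio rescaling. Replicate numbers did not pair the libraries (9 same-numbered pairs, deviation correlations -0.29 to 0.30, 1 over 0.1). With the replicate block the fold changes were the same (Tnfsf11 -1.01, 1.20 and 0.19; Tnfrsf11b 0.27, 0.63 and 0.91; Csf1 -0.03, -0.15 and -0.18; Il34 -1.15, 0.69 and -0.46), no call among the 4 changed, and 120, 64 and 2 genes were called. Ratios with the replicate block gave -1.33, 0.54 and -0.79 for Tnfsf11 to Tnfrsf11b and 1.13, -0.85 and 0.28 for Csf1 to Il34.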
